A study of Drosophila melanogaster with 3 samples.

Results

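The 9 genes described here are the core intracellular components, with the receptor, of the fly Toll-Dorsal pathway (Tl, tub, pll, cact, dl and Dif) and 3 genes of the Imd pathway (imd, key and Rel). They were found by their symbols in the annotation of the dm6 build, all 9 were matched, and they are 9 of the 13945 protein-coding genes on the 6 main chromosome arms. Chromatin immunoprecipitation and sequencing (ChIP-seq) had been done with an antibody against GFP on whole Drosophila melanogaster embryos, males and females pooled, aged 0 to 24 h. The embryos carried a transgene in which GFP is joined to the C-terminus of HHEX, a homeodomain transcription factor also called CG7056. There were 3 biological replicates of this 1 group and no other genotype, treatment or stage, so comparisons were made between replicates and between genes. The promoter that drives the transgene, and the cells of the embryo that make the fusion protein, are not stated in the sources, and peaks of whole embryos cannot be assigned to a cell type.

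In flies, Toll is a transmembrane receptor that is opened by the cleaved ligand Spätzle. Through the adaptor Tube and the kinase Pelle it leads to destruction of Cactus, an inhibitor of the IkappaB family, and so releases the Rel-family transcription factors Dorsal and Dif into the nucleus. Dorsal patterns the dorsoventral axis of the early embryo, and Toll signalling through Dif controls antimicrobial peptide genes. The Imd pathway answers peptidoglycan of mainly Gram-negative bacteria through the adaptor Imd and an IkappaB kinase complex whose regulatory subunit is Kenny, the product of key, and ends in cleavage of the factor Relish, the product of Rel.

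The sequences below are the DNA at summits that carry the results at cact, pll, dl and Dif, and the promoter of tub, shown because its words differ from those at the summits and it had no peak. They were read from genome release 6 (dm6) on the + strand. Each summit window was set at 200 bp centred on the summit, and the pll window was shortened to 173 bp so that it holds no untranslated sequence of the neighbouring gene. The tub stretch is the 250 bp before its transcription start site (TSS). Distances in the names are in bp from the nearest TSS of the gene, negative upstream in the direction of transcription. Capitals mark a match, on either strand, to any of 9 short words that were searched, namely TAATTA and CAATTA (homeodomain words), GGAAANNCC and GGGANTNCC (kappaB words, bound by Rel-family factors), GATAAG (a word of a zinc finger factor family), TATCGATA (the DRE word), GGTCACAC (the M1BP word), CAGGTAG (the Zelda word) and GAGAGAG (the GAGA word).
cact −199 (chr2L:16325724-16325923): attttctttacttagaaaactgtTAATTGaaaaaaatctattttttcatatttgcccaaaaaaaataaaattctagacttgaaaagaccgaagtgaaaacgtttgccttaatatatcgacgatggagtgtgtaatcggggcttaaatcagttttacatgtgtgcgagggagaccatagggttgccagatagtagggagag
pll −175 (chr3R:27253257-27253429): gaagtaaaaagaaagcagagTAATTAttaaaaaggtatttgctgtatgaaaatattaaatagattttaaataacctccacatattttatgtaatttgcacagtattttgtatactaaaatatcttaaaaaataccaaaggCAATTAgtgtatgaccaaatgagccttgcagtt
dl −590 (chr2L:17450854-17451053): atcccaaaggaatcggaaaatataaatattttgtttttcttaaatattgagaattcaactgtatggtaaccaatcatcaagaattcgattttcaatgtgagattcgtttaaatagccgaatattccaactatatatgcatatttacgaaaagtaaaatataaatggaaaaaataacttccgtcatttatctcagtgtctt
Dif −2026 (chr2L:17430125-17430324): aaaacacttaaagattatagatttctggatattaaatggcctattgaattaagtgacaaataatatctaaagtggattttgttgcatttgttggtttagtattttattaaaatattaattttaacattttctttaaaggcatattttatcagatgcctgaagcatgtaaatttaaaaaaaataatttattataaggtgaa
tub upstream of its TSS (chr3R:4387492-4387741): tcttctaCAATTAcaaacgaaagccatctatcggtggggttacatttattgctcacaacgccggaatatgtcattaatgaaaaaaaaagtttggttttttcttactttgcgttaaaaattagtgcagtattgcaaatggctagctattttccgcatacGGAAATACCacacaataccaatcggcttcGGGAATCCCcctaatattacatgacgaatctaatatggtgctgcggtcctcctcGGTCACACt
The cact and pll windows hold homeodomain words, the dl window and the Dif window hold none of the 9 words, and the tub stretch holds both kappaB words, the M1BP word and CAATTA.

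Peaks of the thresholded list were found at 7 of the 9 genes, in the gene or within 5000 bp of it, against 50.5% of all protein-coding genes. That list, from the irreproducible discovery rate (IDR) procedure, which uses how alike peaks rank in replicates, held 5586 peaks. Its lowest signal, 156, is also the signal at rank 5586 of the pooled list. It thus includes peaks that single replicates rank unlike or lack. The signal of a peak is the authors' value from their peak caller, in the caller's own units, and ranks are by signal with 1 the highest. Below, a gene is bound if the distance from any of its TSSs to an IDR summit was at most 1000 bp. By this rule 6 of the 9 genes (66.7%) were bound, namely pll, cact, dl, Dif, Rel and imd, against 23.2% of all protein-coding genes. Tl had summits in its introns but none at its TSS, and tub and key had no summit in the gene or within 5000 bp of it. At their TSSs, the highest peak within 1000 bp had a median pooled signal of 225 over the 6 bound genes, against 295 over all bound genes.

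The files give regions and not reads, so depth is unknown. Each replicate list holds 30000 regions, of which 9759 in replicate 1, 3212 in replicate 2 and 6498 in replicate 3 had a −log10 q of at least 2. Replicate 2 was thus the list with the fewest regions past that value, and it lacked a region at 4 of the 15 IDR summits at these genes (26.7%, against 7.93% of all IDR peaks). Replicate 1 lacked 1 of the 15 (6.67%, against 1.58%) and replicate 3 lacked none (against 1.06%). The 3 replicates shared 1 control, not analysed here, so regions that any anti-GFP immunoprecipitation enriches cannot be told apart from HHEX sites. Signals were not rescaled between lists, so an SD over replicates includes any difference in scale.

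The share of bound genes changed little with the distance that counts. Within 500 bp of a TSS the same 6 genes were bound, against 19.7% of all genes. Within 5000 bp 7 of 9 were, Tl being added, against 44.4%, and over the gene body with 5000 bp on either side the same 7 were, against 50.5%. With summits inside the gene body alone 6 were counted, Tl in place of pll, against 14.4%, without adjustment for gene length. The pooled list at a −log10 q of at least 2, which holds 6566 regions, gave the same 6 genes as the main rule, against 25.8%. These regions include the IDR peaks, so this setting could add genes but not lose any.

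Other choices lowered the count. Among the 2793 IDR peaks of higher signal 3 genes were bound, pll, cact and imd, against 14.1% of all genes. With the 5′-most TSS of each gene alone Dif was lost and 5 remained, against 21.1%. A summit may lie at the TSSs of several genes, and when it was counted only for whichever protein-coding gene had the closest TSS, pll and imd were lost and 4 remained, against 17.4%. The number of TSSs also matters for the share. Of the 5 genes with several TSSs all 5 were bound, against 40.4% of such genes, and of the 4 genes with 1 TSS only pll was, against 17.0%.

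The replicates did not give the same genes. In the 5586 highest regions of replicate 1 alone the 6 genes of the main rule were bound, against 23.7% of all genes. Replicate 2 alone gave 6 genes, with Tl in place of imd, against 21.7%, and replicate 3 alone gave 5, without Dif, against 23.4%. Only pll, cact, dl and Rel were bound in all 3 of these lists, and the share of all genes so bound was not computed. The call was not of the same peak for Rel, whose region in replicate 2 was at −402. Nor was it for dl, whose region in replicate 3 was at −131 and not near −590. A stricter rule kept an IDR peak only if its summit lay among the 5586 highest regions of both replicates that were not left out. Without replicate 1 it kept pll and cact, 2 of 9 genes (22.2%) against 16.7% of all genes, a share near that of all genes. Without replicate 2 it kept pll, cact, Rel and imd, against 17.9%, and without replicate 3 it kept pll, cact, dl and Dif, against 16.0%. The bound call thus held at every setting that keeps summits near a TSS for cact, and for pll at all of these but the nearest-gene rule.

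**Figure D1:**
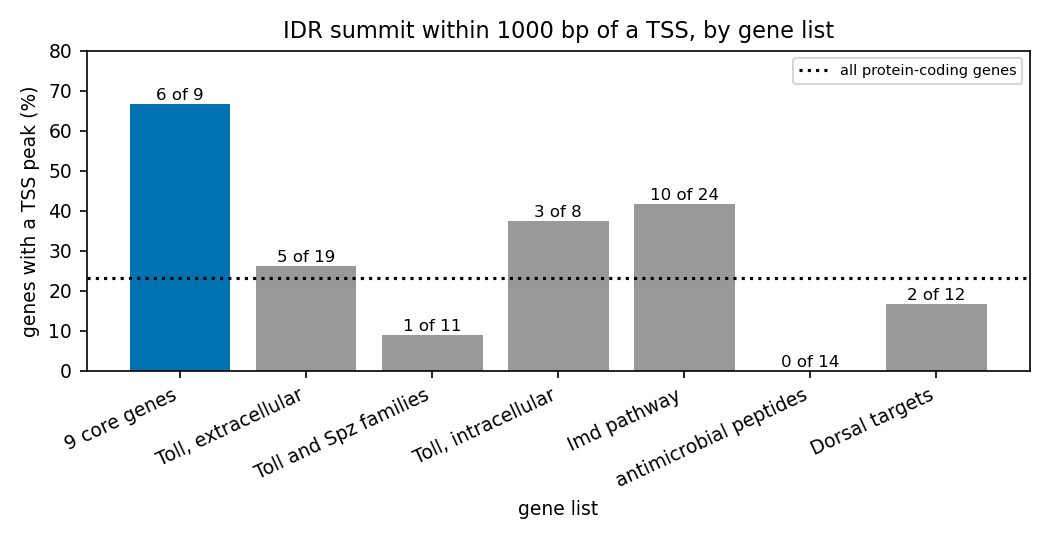
Share of genes with an IDR summit within 1000 bp of a TSS (y axis, percent, from 0) for the 9 genes and for 6 other lists of pathway genes, with the number of genes over each bar. The dotted line is the 23.2% of all protein-coding genes. Only the bar of the 9 genes, 66.7%, stands above 50% on the axis, while antimicrobial peptide genes have 0 of 14. At some other settings the other intracellular Toll genes had a higher share than the 9 genes.

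Tl (FBgn0262473, chromosome arm 3R, 26799041 to 26842403, + strand) encodes the receptor and is the longest of the 9 genes, at 43363 bp. It had 2 IDR peaks, both in introns. The one at +22272 (26821101 to 26821524) had a pooled signal of 177 and rank 4712, with 40.6, 63.0 and 61.7 in replicates 1, 2 and 3 and a mean of 55.1 ± 12.6 (SD, n = 3). The one at +2660 (26801489 to 26801912) had 164 and rank 5218, with 78.8, 43.6 and 52.9 and a mean of 58.4 ± 18.2 (SD, n = 3). The replicates did not order these peaks alike, as replicate 1 was lowest at the first and highest at the second. At the Tl TSS itself the pooled list had a region 9 bp upstream with a signal of 135 and rank 6840, which lies under the lowest IDR signal of 156.

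tub (FBgn0003882, 3R, 4387742 to 4389813, + strand), the adaptor that joins the receptor complex to Pelle, had no IDR peak. A pooled region with a signal of 124 and rank 7754 lay 52 bp upstream of its TSS. The signal was 48.7 in replicate 1 and 50.8 in replicate 3, and replicate 2 had no region within 1000 bp of the TSS. Its value was thus low in the lists that had it and not listed in the other.

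pll (FBgn0010441, 3R, 27251131 to 27253182, − strand) encodes the kinase. Its peak at −175 (27253145 to 27253568) had a pooled signal of 256 and rank 2782, with 66.2, 127 and 66.5 in replicates 1, 2 and 3 and a mean of 86.6 ± 35.1 (SD, n = 3). Replicate 2 was the highest and the others were alike. TfIIA-L, a general transcription factor gene, is read in the other direction here. The summit lies in an intron of 1 of its transcripts and 73 bp upstream of another of its TSSs, and so nearer to that gene than to pll. Which of the 2 genes the peak belongs to cannot be told apart by position. A further peak lay 4702 bp past the end of pll (27246217 to 27246640) in the 3′ untranslated region of CG5984, with a pooled signal of 289, rank 2301 and replicate values of 118, 83.3 and 91.3. The nearest protein-coding TSS to it was that of CG18766, 1180 bp away.

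cact (FBgn0000250, 2L, 16313036 to 16326207, − strand) encodes the inhibitor and had the highest signal at a TSS of the 9 genes. Its peak at −199 (16325693 to 16325869) had a pooled signal of 642 and rank 608, and 4.07% of all protein-coding genes had a higher region at a TSS. The replicates gave 211, 241 and 177, a mean of 210 ± 31.6 (SD, n = 3), with ranks of 698, 492 and 848. All 3 replicate values were above every value at a TSS of the other 8 genes. The summit lies in an intron between alternative TSSs of cact, of which there are 4, no other protein-coding gene has a TSS within 1000 bp, and the peak is narrow, at 177 bp against a median width of 424 bp.

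Away from its TSSs cact had 2 lower peaks. The one at +7455 (16317753 to 16318176), in an intron, had a pooled signal of 254, with 108 in replicate 1, 89.2 in replicate 3 and no region at the summit in replicate 2. The nearest protein-coding TSS was that of fzy, which encodes an activator of the anaphase-promoting complex, 7009 bp away. The one at −3060 (16329055 to 16329478) had 170, with 44.9, 54.4 and 64.8 in replicates 1, 2 and 3. It is nearer to mRpL4, a mitochondrial ribosomal protein gene whose TSS is 135 bp from the summit, and to CG4440 at 658 bp.

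dl (FBgn0260632, 2L, 17436830 to 17450364, − strand) and Dif (FBgn0011274, 2L, 17413248 to 17433161, − strand) encode the Rel-family factors of the pathway and are neighbours on the chromosome. dl had 2 IDR peaks within 1000 bp of a TSS, as did imd. Of all genes 4.60% had 2 or more, without adjustment for the number of TSSs. The peak at −590 (17450742 to 17451165) had a pooled signal of 194, with 100, 52.6 and 38.6 in replicates 1, 2 and 3 and a mean of 63.9 ± 32.4 (SD, n = 3). It lies in an exon of a long noncoding gene, lncRNA:CR46204, 460 bp from that gene's TSS.

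The second dl peak, at −132 (17448430 to 17448853) from an alternative TSS and in an intron of the 3 transcripts that span it, had 159, the rank 5461 of 5586, with 34.7, 41.3 and 91.8 and a mean of 55.9 ± 31.3 (SD, n = 3). At the first peak replicate 1 was highest and replicate 3 lowest, and at the second the order was the reverse. In ranks, the first went from 2493 in replicate 1 to 10935 in replicate 3, and the second from 13368 to 2669. Neither was among the 5586 highest regions in all replicates.

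Dif had 3 IDR peaks in the gene or within 5000 bp, as did cact, and 11.0% of all genes had 3 or more, without adjustment for gene length. The one at −2026 (17430023 to 17430260) was the highest at any of the 9 genes, with a pooled signal of 916 and rank 309. It lies in an intron of the 1 transcript that spans it, which starts at the upstream TSS, 2026 bp upstream of the other TSS, and 519 bp from the TSS of the noncoding gene lncRNA:CR44409. The regions that contain its summit had 312, 141 and 297 in replicates 1, 2 and 3, a mean of 250 ± 94.6 (SD, n = 3), with ranks of 306, 1209 and 304. Replicate 2 was the low one, and there a second region that ended before the summit (17430046 to 17430196) had 304 and rank 321. With that region in place the mean was 304.

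The Dif peak nearest a TSS was much lower. At +158 (17427829 to 17428252), in the 5′ untranslated region of 3 of the 4 transcripts that span it, it had a pooled signal of 180, with 65.2, 60.0 and 55.7 in the replicates and a mean of 60.3 ± 4.77 (SD, n = 3). Its replicates were the closest together of all peaks at the 9 genes that have 3 values, relative to the mean. The other peak lay 2726 bp past the end of the gene (17410310 to 17410733) with a pooled signal of 364, no region in replicate 1, and 163 and 99.4 in replicates 2 and 3. It lies between Polr2J, an RNA polymerase II subunit gene, and CG15141, whose TSSs are 116 and 119 bp from its summit.

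**Figure D2:**
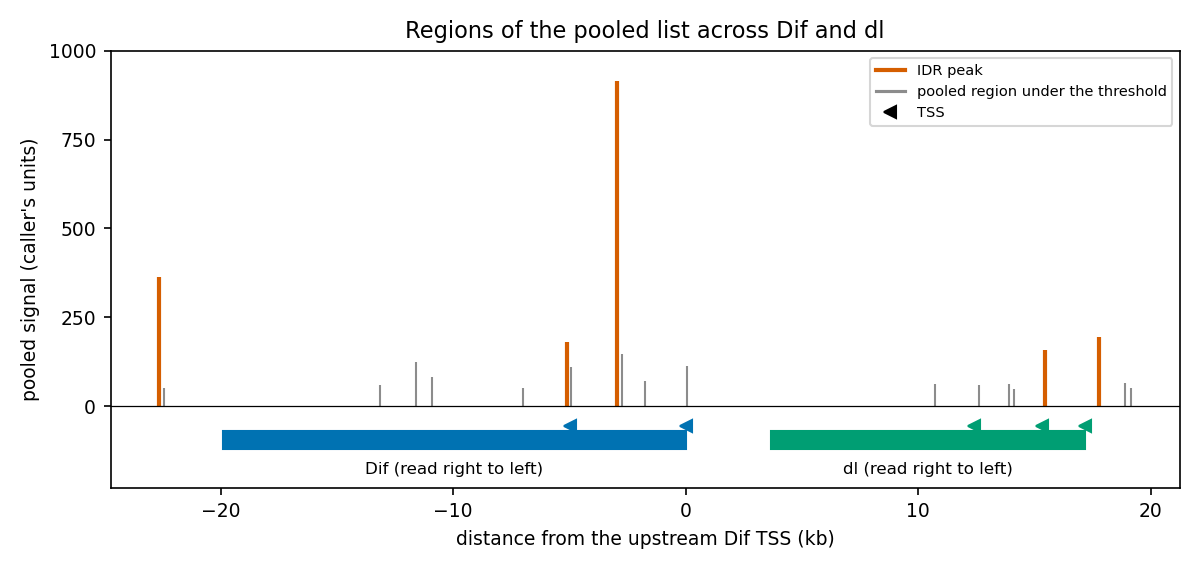
Pooled signal (y axis, caller's units) of every region of the pooled list across Dif and dl, by distance in kb from the upstream Dif TSS (x axis). Both genes are read right to left, arrowheads are TSSs, orange bars are IDR peaks and grey bars regions under the threshold. The bar of 916 inside Dif is far above the bars of 180 at the downstream Dif TSS and of 194 and 159 at dl.

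Rel (FBgn0014018, 3R, 9044183 to 9047977, − strand) encodes Relish, the factor at the end of the Imd pathway. Its 1 IDR peak, at +112 (9047505 to 9047928), lay in its 5′ untranslated region and had a pooled signal of 170 and rank 4962. The signal was 102 in replicate 1 and 65.9 in replicate 3. Replicate 2 had no region at that summit and instead 1 at −402 from a Rel TSS with a signal of 69.9. The summit also lies in an intron of Nmdmc, a gene of folate metabolism, and the TSSs of Nmdmc and Mst85C were 934 and 928 bp from the summit.

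imd (FBgn0013983, 2R, 18409796 to 18413599, − strand) encodes the adaptor of the pathway. The peak at −611 (18411931 to 18412354) had a pooled signal of 289 and rank 2298, with 90.6 in replicate 1 and 110 in replicate 3. The peak at −289 (18413676 to 18414099) had 248 and rank 2894, with 113 in replicate 1 and 95.2 in replicate 3. Replicate 2 had no region at either summit and none within 1000 bp of an imd TSS, so both peaks rest on 2 replicates. Both are nearer to a TSS of Dp1, which encodes an RNA-binding protein and is read in the other direction, at 116 and 163 bp, and position alone cannot assign them to imd.

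key (FBgn0041205, 2R, 24785514 to 24787411, − strand), the regulatory subunit of the kinase complex, had no IDR peak. Its highest pooled region at a TSS, 469 bp upstream, had a signal of 80.4 and rank 14477. The replicates gave 42.7 and 26.1 in replicates 1 and 3 and no region in replicate 2. This was the lowest value of the 9 genes, although 39.5% of all protein-coding genes had a higher region and 53.3% had any region at a TSS.

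**Figure D3:**
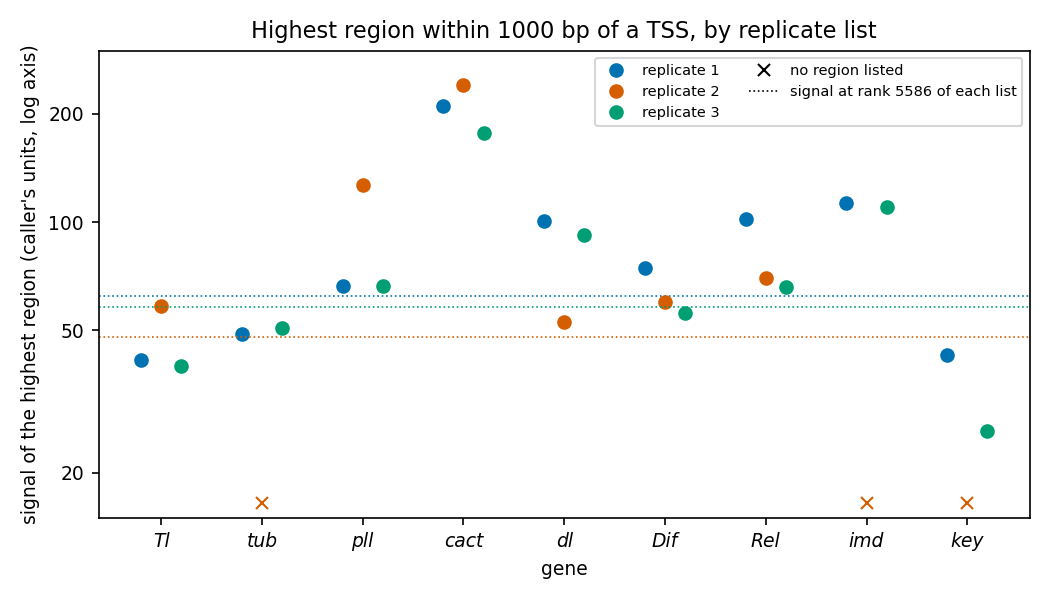
Signal of the highest region within 1000 bp of a TSS of each gene (y axis, caller's units, log axis) in each replicate list, as points. Crosses mark a replicate with no region, and dotted lines the signal at rank 5586 of each list, which is 62.2, 47.8 and 58.0 in replicates 1, 2 and 3. The 3 points of cact, 177 to 241, sit above all others, and tub, imd and key have no region in replicate 2.

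For each gene the highest region within 1000 bp of any TSS was taken in each replicate, which need not be the same region. At imd it was the one near −289 in replicate 1 and the one near −611 in replicate 3. At dl it was the one near −590 in replicates 1 and 2 and the one near −132 in replicate 3. Dif had one at −44 from its upstream TSS in replicate 1 and ones at +140 and +144 in replicates 2 and 3. In replicate 2 the Rel region was at −402 and the Tl region at +764, away from those of replicates 1 and 3. The SDs of these genes are thus not those of a peak. In the order of the replicate means of these regions, cact came first with 210 ± 31.6 (SD, n = 3). It was followed by imd with 111 ± 2.05 (SD, n = 2), pll with 86.6 ± 35.1, dl with 81.6 ± 25.5, Rel with 79.3 ± 19.9 and Dif with 63.4 ± 9.83 (SD, n = 3 each). The last were tub with 49.7 ± 1.46 (SD, n = 2), Tl with 46.4 ± 10.3 (SD, n = 3) and key with 34.4 ± 11.7 (SD, n = 2). Replicate ranges of neighbours in this order overlapped except between cact and imd and between Dif and tub. Among genes further apart in the order, both imd values were above every value of dl, Rel and Dif, though imd rests on 2 replicates, and both tub values were above those of key. Within replicates, where both genes of a pair had a value, imd was above pll in 2 of 2, Rel above Dif in 3 of 3 and tub above Tl in 2 of 2. For pll and dl, for dl and Rel, and for Tl and key the direction was not the same in all replicates. With 3 values a gene an exact permutation test of a pair of genes cannot go below p = 0.1, so none was made.

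The 15 IDR summits at the 9 genes differed less from the IDR list in height than in how well they were shared. Their median pooled signal was 248, against 255 over all IDR peaks. In all 3 replicate lists 10 of the 15 (66.7%) had a region, against 89.9% of all IDR peaks. Among the 5586 highest regions of all 3 replicates were 4 of the 15 (26.7%), against 59.0%. Those 4 were both pll peaks, cact at −199 and Dif at −2026. Of the 15 summits 8 were within 1000 bp of a TSS of the gene, 6 of them within 500 bp, and 3 of the 8 were nearer to the TSS of another gene. Of the 7 farther off, 4 lay inside the gene, at Tl, cact and Dif.

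**Figure D4:**
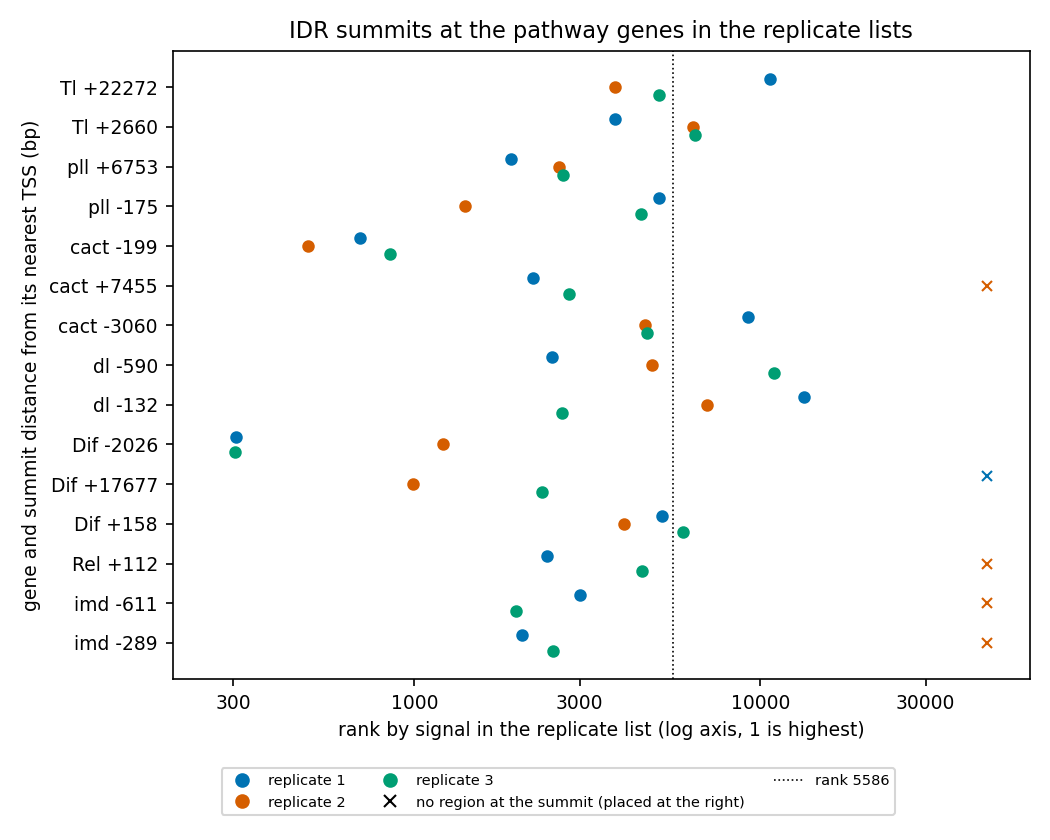
Rank by signal in each replicate list (x axis, log axis, 1 is highest) of the region at each of the 15 IDR summits, named by gene and distance in bp from its nearest TSS (y axis). Crosses at the right mark a replicate with no region at the summit, 4 in replicate 2 and 1 in replicate 1. Only the points of pll, of cact at −199 and of Dif at −2026 all lie left of the dotted line at rank 5586.

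The base composition of the summits also varied among the genes. The 200 bp at IDR summits had a median GC content of 36%, with quartiles of 31.5% and 42%. The Dif summit at −2026 had 21.5%, and 0.448% of IDR summits had less. Its longest run of A and T was 28 bp, and 2.26% of IDR summits had a run as long. Only the summit past the end of pll, at 20.5%, was lower among the 14 windows described. The cact summit at −199, with 34.5%, was near the median, and pll at −175 had 29.5%. The dl summit at −590 had 27%, and 6.03% of IDR summits had less. Whether GC content has a part in the signals of these peaks was not tested.

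**Figure D5:**
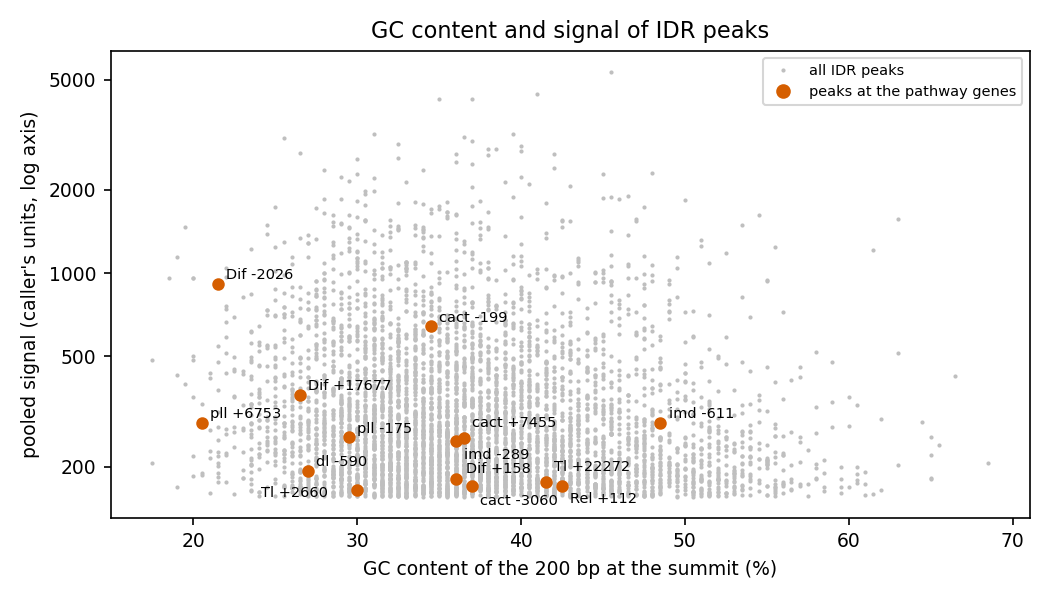
GC content of the 200 bp at the summit (x axis, percent) and pooled signal (y axis, caller's units, log axis) of all IDR peaks (grey) and of 14 of the 15 at the 9 genes (orange, named by gene and distance in bp from its nearest TSS). Dif at −2026 sits at 21.5% and 916, toward the low-GC edge of the cloud, and most other named points lie low on the signal axis.

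With 15 windows, the counts of the searched words at the summits of these genes were near the shares in all IDR windows. TAATTA was in 2 of the 15 windows, pll at −175 and Dif at +158, and in 16.6% of all IDR windows. CAATTA was in 3, cact at −199, pll at −175 and imd at −611, and in 18.9% of all IDR windows. GATAAG was in 1, the window past the end of pll, and in 11.7%. The other words were in 0 of the 15. Among all IDR windows these are rare too, at 2.04% for GGAAANNCC, 0.823% for GGGANTNCC, 2.35% for TATCGATA, 1.88% for GGTCACAC, 1.02% for CAGGTAG and 4.85% for GAGAGAG. The highest peak, Dif at −2026, thus held none of the words. A word that is missing says only that these letters are not in the window.

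Promoters, taken from 250 bp before to 50 bp after each TSS, gave another picture for the genes with no peak. Those of tub and key both held GGAAANNCC and GGTCACAC, which 3.56% and 6.72% of 19253 promoters hold, and that of tub also held GGGANTNCC (1.55%) and CAATTA (24.4%). No other promoter of the 9 genes held a kappaB word or GGTCACAC. The promoter of Tl held GAGAGAG (7.62%). The promoter of pll held TAATTA (18.9%) and CAATTA, and 2 of the 4 promoters of cact held CAATTA. At imd, the promoter of the downstream TSS held CAATTA and TATCGATA (7.98%) and that of the upstream TSS GAGAGAG. No promoter of dl, Dif or Rel held any of the 9 words.

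The genes whose TSS peak was most like that of a member were found by the sum, over the 3 replicates, of the absolute log2 ratio of signals, among 2811 bound genes with a value in every replicate. For cact they were org-1, which encodes a T-box transcription factor, and Dus2, with sums of 0.10 and 0.13. For pll they were CG9302 and beta'COP, a coatomer subunit gene, which share 1 peak and a sum of 0.11. For dl they were Rm62, which encodes an RNA helicase, with 0.16, and MFS3 with 0.25, and for Dif p47 with 0.07 and CG45089 with 0.15. Rel and imd lack a replicate value and were not compared.

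The rest of the Toll and Imd pathways was described with lists of 88 other genes, of which 21 (23.9%) were bound, a share close to the 23.2% of all genes. Of the other intracellular Toll genes 3 of 8 (37.5%) were bound. The same 3 were bound among the IDR peaks of higher signal, against 33.3% of the 9 genes and 14.1% of all genes. They were also kept without replicate 1, against 22.2% of the 9 genes and 16.7% of all genes. Without replicate 2 or 3 they were kept too, against 44.4% of the 9 genes. By the nearest TSS 1 was bound (12.5%), against 44.4% of the 9 genes and 17.4% of all genes. Myd88, the adaptor that binds Toll and Tube, had a peak at −102 with a pooled signal of 649.5 and rank 592, close to that of cact, and replicate values of 193, 266 and 177. Gprk2, a kinase gene, had one of 3000.2 and rank 9, higher than any at the 9 genes, but its summit is 79 bp from the TSS of PNPase and stands at −584 from that of Gprk2. Traf6 had one of 293, 160 bp from its TSS and 82 bp from that of GIIIspla2.

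Upstream of the receptor 5 of 19 extracellular genes were bound. These were pip, whose product modifies the eggshell to set the ventral side, the serpin gene Spn27A, the recognition protein genes GNBP1 and GNBP3, and the protease gene spirit, with pooled signals of 220 to 412. The share of 26.3% was close to the 23.2% of all genes, and the GNBP1 and spirit summits were nearer to the TSSs of GNBP2, at 177 bp, and CG12065, at 298 bp. The Spn27A summit is 301 bp from its own TSS and 316 bp from that of CG34310. The GNBP3 summit is 151 bp from its own TSS, 407 bp from that of orb2 and 598 bp from that of CG43783. Of the other Toll receptors and Spätzle-like ligands 1 of 11 was bound, Toll-7. Its peak at −270 had a pooled signal of 1371 and rank 124, with 439, 396 and 526 in the replicates and a mean of 454 ± 66.0 (SD, n = 3). All 3 values were above those at any peak of the 9 genes, and no other protein-coding TSS was within 1000 bp.

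Of the other Imd pathway genes 10 of 24 (41.7%) were bound, against 23.2% of all genes. With the stricter replicate rule 6 remained without replicate 1 (against 16.7% of all genes) and 4 without replicate 2 or 3 (16.7%, against 17.9% and 16.0%), and 3 were bound among the IDR peaks of higher signal (12.5%, against 14.1%). The 10 genes were the peptidoglycan receptor genes PGRP-LA and PGRP-LB, pirk, a negative regulator, the ubiquitin-conjugating enzyme genes eff and ben, the kinase genes Tak1 and IKKbeta, Tab2, which encodes the partner of Tak1 and whose summit is 4 bp from the TSS of mip40, POSH, a ubiquitin ligase gene, and CYLD, a deubiquitinase gene. The POSH peak, with a pooled signal of 1293 and rank 144, was the highest of them, and the other 9 had pooled signals of 168 to 388. The median of the 10, 214, was below the 295 of all bound genes, as for the 9 core genes. The POSH summit is 101 bp from the TSS of POSH and 175 bp from that of Ns2. The IKKbeta summit is 107 bp from its own TSS and 142 bp from that of CG5013. Farther off were the TSSs of CG42362 and CG42363, 908 bp from the pirk summit, and of jvl, 627 bp from the eff summit.

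The last lists are genes that the pathways act on. Among the 14 antimicrobial peptide genes, 0 met the bound rule, while 23.2% of all genes did. Each of the 14 has 1 TSS, and 17.0% of all genes with 1 TSS were bound. For 0 of 14 the upper 95% confidence limit of the share was 23.2%. This limit is not below either share, so 14 genes are too few to show that they are bound less often. The pooled list, with its 30000 entries, placed a region at the TSS in 6 cases, and the best rank was 16574. Some of these genes have close copies, such as AttA and AttB or CecA1 and CecA2, at which reads may not be assignable. The state of such copies is therefore uncertain. DptA, DptB, AttD and CecC were among the 6 with a pooled region. Within 5000 bp of a TSS 6 of the 14 (42.9%) had an IDR summit, near the 44.4% of all genes. They were Def, the neighbours DptA and DptB, and the clustered genes CecA1, CecA2 and CecB. Neighbours can share a summit, so the 6 are not separate loci. Of 12 targets of Dorsal in the early embryo 2 (16.7%) were bound, near the share of all genes, and they were rho, a protease gene of EGF receptor signalling, with a signal of 176, and brk, which encodes a repressor of Dpp targets. The brk peak at −736 had a pooled signal of 775 and rank 420, with no region at the summit in replicate 1 and 324 and 207 in replicates 2 and 3. Within 5000 bp of a TSS 6 of the 12 had a summit, against 44.4% of all genes, and in the gene body 5 did (41.7%), against 14.4%. The gene body shares were not adjusted for gene length.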

How the data were processed

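Peaks of HHEX-GFP on the dm6 build were used, from 3 biological replicates of whole embryos. The signal of each region and its −log10 q are deposited by the authors, in narrow peak format per the deposited file descriptions, and were not rescaled. Aligner, caller and the threshold of the IDR step were not given in the sources used here. Per the deposited descriptions, each replicate was called on its own against 1 shared control, the pooled list comes from the pooled reads, and the IDR list derives from both. Lists on dm3 were not used, as nothing was converted between builds. Starts were changed from counting from 0 to counting from 1. Genes and 23581 distinct TSSs came from Ensembl release 115 (BDGP 6.54), without transposable elements, and sequence from genome release 6. All 9 genes and the 88 others were matched by symbol.

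In a replicate list, the region taken at an IDR summit is the highest that contains it. Named genes are the 9, every bound gene of the other lists, the genes with a TSS within 1000 bp of a named summit or else nearest to it, and the 2 most alike in signal. Alternatives changed the distance, the place, the TSSs, the threshold, the list and the replicates. Python 3.11.15 with numpy 2.4.6 and matplotlib 3.10.9 was used. Only the rule that calls a gene bound was tested on simulated data, with summits placed at set distances from a TSS. The 9 genes, the lists and the words were chosen with earlier results of these data known. No test over genes was made. The sequence of 1 summit window at dl is not reported here.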

Additional observations from a re-analysis of the deposited data

How the results depend on the processing

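The count of the 9 genes bound was 6 (66.7%, against 23.2% of all genes), and 3 among the 2793 IDR peaks of higher signal (33.3%, against 14.1%). It was 2 to 4 when 1 replicate was left out, with 2 without replicate 1 (22.2%, against 16.7%), and the cause was not tested. The other settings gave 4 to 7. Counting a summit only for the nearest protein-coding TSS was chosen after seeing the data.

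For the other lists, the share over all genes was 19.7% within 500 bp, 44.4% within 5000 bp, 14.4% in the gene body, 50.5% in the body or within 5000 bp, 17.4% by the nearest TSS, 16.0% to 17.9% with 1 replicate left out and 21.7% in replicate 2 alone. Of the 19 Toll extracellular genes 5 were bound, 8 within 5000 bp (42.1%), 1 in the gene body (5.26%), 9 in the body or within 5000 bp (47.4%) and 3 by the nearest TSS (15.8%). Of the 11 other receptors and ligands 1 was bound, 2 within 5000 bp (18.2%), 0 in the body, 4 in the body or within 5000 bp (36.4%) and 2 in replicate 2 alone (18.2%). Of the 8 other intracellular Toll genes 3 were bound, 5 within 5000 bp and 5 in the body or within 5000 bp (62.5% each), and 1 by the nearest TSS (12.5%). Of the 24 other Imd genes 10 were bound, 5 in the body (20.8%), 17 in the body or within 5000 bp (70.8%), 3 among the higher peaks (12.5%) and 4 to 6 with 1 replicate left out. Of the 14 antimicrobial peptide genes 0 were bound, and 6 within 5000 bp, with or without the body (42.9%). Of the 12 Dorsal targets 2 were bound, 6 within 5000 bp with or without the body, 5 in the body (41.7%), and 1 within 500 bp, among the higher peaks, with any 1 replicate left out or in replicate 2 alone (8.33%). The cause of these changes was not tested.

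Distances from the highest summit to the TSS moved, when the summit of a replicate was used, to 22251 bp for Tl, 180 bp for cact and 2201 bp for Dif in replicate 2, to 6656 bp for pll and 701 bp for imd in replicate 1, and to 6662 bp for pll, 564 bp for dl and 31 bp for Rel in replicate 3. With 1 replicate left out, the mean signal of the highest peak ranged from 45.6 to 76.5 for dl and from 219 to 305 for Dif. No paired analysis between conditions was possible because there is 1 group. Depth is unknown, replicate 2 has the fewest regions past a −log10 q of 2, and the control was not analysed here.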
